A study of Mus musculus with 3 samples.

Results

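Cluster 7 of the mouse retina is a group of OFF cone bipolar cells that the authors separated by clustering, and its members were taken as every cell carrying cluster number 7 in the deposited cell table. They numbered 449 of 15242 cells. All mice were C57BL/6J, were kept in the dark for life and were 8 weeks old. The WT group had both sexes and ate the base chow, the rd10-vehicle group was female, carried the rd10 mutation of the rod phosphodiesterase gene Pde6b and ate the same base chow, and the rd10-TMB group was female with the same mutation and ate chow holding tamsulosin, metoprolol and bromocriptine. Each group was 1 droplet library of pooled retinas, with 1 retina from each of 4 mice by the labels, while the text of the study names fewer rd10 mice. The pooled mice could not be separated, so no value below carries an animal-to-animal error, and the sex mix cannot be told apart from the genotype in comparisons with WT.

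Cone bipolar cells carry the output of cones to the inner retina. OFF cone bipolar cells receive glutamate through ionotropic receptors, with the kainate receptor subunit Grik1 among the best known, and are excited when light dims. ON bipolar cells instead use the metabotropic receptor Grm6 and the channel Trpm1. In mouse atlases the OFF cone types are told apart by genes such as Nnat and Prkar2b (type 3b), Erbb4 and Irx6 (type 3a), Col11a1 (type 4), and Lhx3 (type 2). rd10 rods degenerate, and bipolar cells lose rod input and later cone input.

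Windows at transcript starts of 5 genes that carry the results are shown because Otor and Slitrk6 marked the cluster, and Cabp5 and Nnat occurred mostly in other cells of it than Col11a1. Each run is 300 bases of RefSeq sequence (GRCm38.p6), from 250 bases before to 50 bases after a transcript start as the RefSeq promoter table gives it, in the direction of the gene. This start need not be the outer end of the gene record, and the Cabp5 window lies within its record (chr7:13385960-13408887). The windows are chr2:143078143-143078442 (plus strand) for Otor, chr14:110755100-110755399 (minus strand) for Slitrk6, chr7:13397905-13398204 (plus strand) for Cabp5, chr2:157559828-157560127 (plus strand) for Nnat and chr3:114030290-114030589 (plus strand) for Col11a1. Capitals mark TAATCC, a core of sites bound by Otx2 and Crx, or TAATTA, a core of homeodomain sites, each searched on both strands.
Otor: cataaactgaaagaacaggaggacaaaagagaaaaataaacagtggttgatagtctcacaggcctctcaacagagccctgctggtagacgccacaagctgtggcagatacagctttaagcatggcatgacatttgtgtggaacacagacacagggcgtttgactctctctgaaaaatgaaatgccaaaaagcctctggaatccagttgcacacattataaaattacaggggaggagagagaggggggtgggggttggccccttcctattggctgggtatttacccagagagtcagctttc
Slitrk6: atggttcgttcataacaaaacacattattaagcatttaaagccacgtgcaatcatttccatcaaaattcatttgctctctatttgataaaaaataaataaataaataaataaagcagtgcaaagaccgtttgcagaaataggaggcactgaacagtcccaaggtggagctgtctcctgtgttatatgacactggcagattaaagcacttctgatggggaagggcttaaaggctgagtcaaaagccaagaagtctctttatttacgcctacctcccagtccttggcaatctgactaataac
Cabp5: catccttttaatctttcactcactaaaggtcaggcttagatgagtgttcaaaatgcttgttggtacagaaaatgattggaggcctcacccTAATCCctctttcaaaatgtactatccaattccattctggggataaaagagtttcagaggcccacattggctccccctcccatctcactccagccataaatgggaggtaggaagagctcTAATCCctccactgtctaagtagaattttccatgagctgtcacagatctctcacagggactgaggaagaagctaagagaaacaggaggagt
Nnat: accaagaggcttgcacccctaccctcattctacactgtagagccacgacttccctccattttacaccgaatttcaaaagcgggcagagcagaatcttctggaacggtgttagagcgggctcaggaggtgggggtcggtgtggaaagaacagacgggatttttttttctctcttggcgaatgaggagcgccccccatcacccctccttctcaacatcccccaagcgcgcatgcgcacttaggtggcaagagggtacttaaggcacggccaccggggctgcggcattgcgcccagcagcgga
Col11a1: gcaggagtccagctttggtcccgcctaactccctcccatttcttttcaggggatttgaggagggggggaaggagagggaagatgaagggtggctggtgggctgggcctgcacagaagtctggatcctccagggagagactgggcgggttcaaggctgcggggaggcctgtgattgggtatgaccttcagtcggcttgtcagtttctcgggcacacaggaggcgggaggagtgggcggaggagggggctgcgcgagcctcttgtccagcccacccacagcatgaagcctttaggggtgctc
TAATCC occurred in the Cabp5 window at 2 places and in none of the other windows shown, and TAATTA occurred in none of them. Of 32851 promoter windows of this length, 7.06% held TAATCC and 5.29% held TAATTA. A match is a description of letters and not a shown binding site.

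The whole gene of Grik1 lay at chr16:87895901-88290863, of Otor at chr2:143078393-143081713, of Slitrk6 at chr14:110747338-110755204, and of Nnat at chr2:157560078-157562525. Values below are UMIs (unique molecules) summed over the cells of a library and scaled to CPM (counts per 1000000 UMIs), and ratios are log2 ratios of CPM with 1 UMI added to each side. Bracketed ranges are exact 95% intervals that cover counting error only. In ratios between libraries, 1.5-fold was used as the limit of a counted difference. A ratio over all cells outside the cluster pools every other class, so it also follows the mix of cells in each library.

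WT held 143 of these cells with 503560 UMIs, rd10-vehicle 178 with 446659 UMIs and rd10-TMB 128 with 374727 UMIs. The median cell had 3660, 2532 and 3051 UMIs in WT, rd10-vehicle and rd10-TMB, although the median over all cells of a library was lower in WT (3509.5) than in rd10-vehicle (4811.5) and rd10-TMB (4772.5). The median share of mitochondrial UMIs was 7.69%, 7.98% and 9.03% in the same order. No cell barcode of the cluster occurred in more than 1 library.

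The share of cluster 7 among all cells was 3.19% (exact binomial interval 2.70 to 3.75) in WT, against 2.99% (2.57 to 3.46) and 2.66% (2.22 to 3.15) in rd10-vehicle and rd10-TMB. These intervals overlapped. The order turned when the rod, cone and Müller glia clusters were left out of the denominator, with 5.74% (4.86 to 6.73) in WT, against 7.54% (6.50 to 8.68) and 6.72% (5.63 to 7.93) in rd10-vehicle and rd10-TMB. The intervals of WT and rd10-vehicle still overlapped slightly. A share of captured cells follows the numbers of all other cells and does not count cells per retina.

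The defining transcripts were at similar levels in the 3 libraries. Grik1 was at 1364, 1319 and 1334 CPM in WT, rd10-vehicle and rd10-TMB, and the neighbouring OFF cone cluster 8 held 845 CPM over all libraries, while cluster 3, the largest group of ON cone bipolar cells, held 36.0 CPM. Otor, which encodes the small secreted protein otoraplin, was at 570, 627 and 667 CPM in the same order, against 30.2 in cluster 8 and 73.3 in cluster 3. Slitrk6, a leucine-rich repeat adhesion protein of neurons, was at 471, 616 and 558 CPM, against 56.0 in cluster 8 and 18.9 in cluster 3. All 3 markers were thus abundant in the cluster in each library, although the clustering itself had used them. Slitrk6 was the only one of the 3 whose interval left 0 in a comparison of libraries, with a log2 ratio of 0.39 (0.13 to 0.64) for rd10-vehicle over WT, which was 0.03 in the cells with Nnat-group and no Zfhx3-group UMIs described below.

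Per cell, at least 1 Grik1 UMI was found in 93.7%, 88.8% and 93.8% of the cluster's cells in WT, rd10-vehicle and rd10-TMB. The rod bipolar cells of cluster 2, which served as the measure of free RNA, had a Grik1 UMI in 15.8%, 10.7% and 10.7% of cells at median depths of 5032, 3638 and 4310 UMIs. Otor was found in 69.9%, 66.9% and 68.8% of cluster 7 cells, and in 0.494%, 0.686% and 0.618% of rod bipolar cells. The detection of both markers lay far above that background in each library, with the rod bipolar cells being the deeper ones. With cells thinned to 1000 UMIs, Grik1 was found in 74.5%, 69.6% and 68.1% of cluster 7 cells and Otor in 36.2%, 40.5% and 53.8%.

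**Figure D1:**
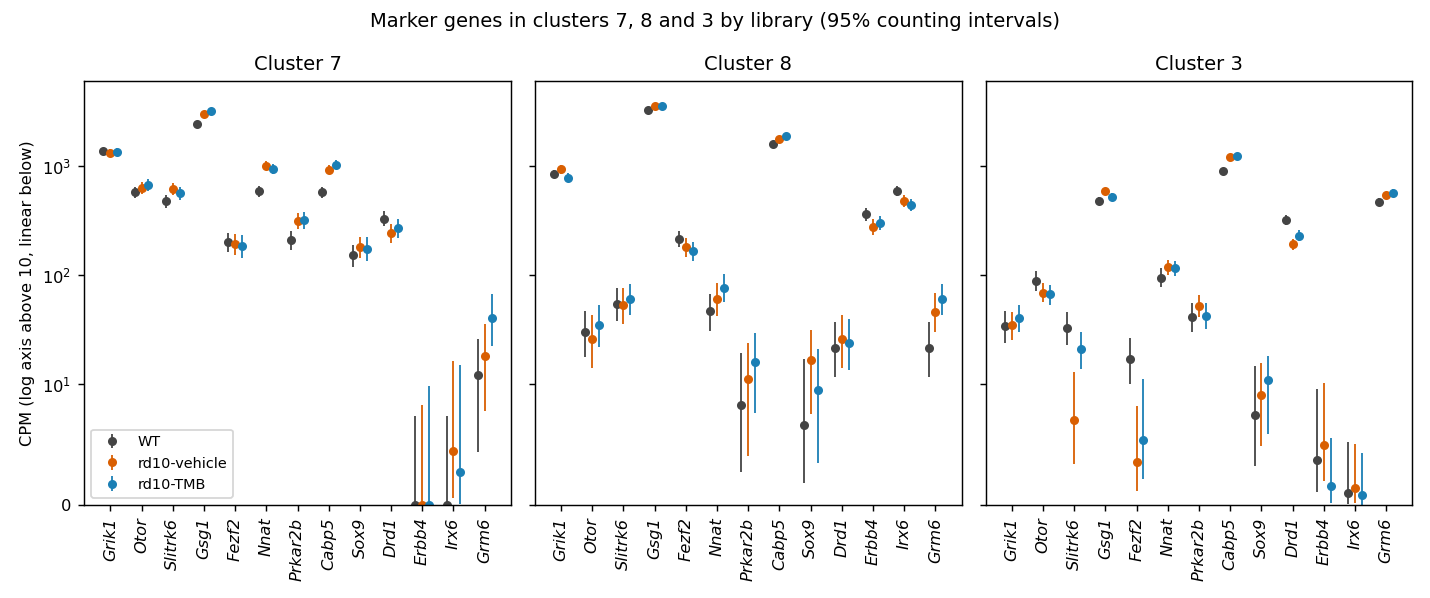
CPM of 13 genes in clusters 7, 8 and 3, with 1 point per library (grey WT, orange rd10-vehicle, blue rd10-TMB) and exact 95% counting intervals, on an axis that is logarithmic above 10 CPM and linear below. Grik1 is high in clusters 7 and 8, Otor, Slitrk6, Nnat, Prkar2b and Sox9 are high in cluster 7, Erbb4 and Irx6 in cluster 8, and Grm6 in cluster 3.

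Among all genes with at least 50 CPM in the cluster, the one with the highest ratio to all other cells was Gm45604, a predicted gene, at 229 CPM against 0.657 CPM. Otor, Slitrk6, the dynein intermediate chain gene Dnaic1, Adamtsl2 and Grik1 came next, followed further down by the potassium channel partner Kcnip4, the forebrain and bipolar factor Fezf2 and the nicotinic receptor subunit Chrna4. Fezf2 was at 201, 190 and 184 CPM in WT, rd10-vehicle and rd10-TMB, a level like that of cluster 8 (186 CPM) and above that of cluster 3 (7.88 CPM).

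Cluster 7 and cluster 8 shared Grik1 but differed in many type genes. The regulatory subunit of protein kinase A Prkar2b was at 209, 313 and 318 CPM in cluster 7 against 11.8 CPM in cluster 8. The calmodulin-binding peptide Pcp4 was at 4305, 3797 and 3720 CPM against 226 CPM. Nnat, an imprinted membrane proteolipid, was at 586, 1003 and 929 CPM against 61.0 CPM. In the other direction Erbb4, a neuregulin receptor, had 0 of 1324946 UMIs in cluster 7, which allows up to 2.26 CPM, and 312 CPM in cluster 8. Irx5 and Lhx3 were also at 0 UMIs, against 244 and 75.6 CPM in cluster 8, and the homeobox genes Irx6 and Zfhx4 had 3 and 9 UMIs, against 499 and 1163 CPM. Against cluster 3, the ON receptor Grm6 (21.9 CPM against 529) and the adhesion protein Cntn5 (18.1 against 397) were among the lowest.

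Sox9, a factor that marks Müller glia, was at 151, 179 and 173 CPM in WT, rd10-vehicle and rd10-TMB. It was at 10.6 CPM in cluster 8 and 9.19 CPM in cluster 3. At least 1 Sox9 UMI was found in 31.5%, 32.0% and 32.8% of cluster 7 cells, against 0.741%, 0.137% and 1.85% of rod bipolar cells. After thinning to 1000 UMIs the cluster 7 shares were 10.6%, 13.7% and 15.1%, with overlapping intervals. Of the 10 Müller glia markers fixed for the check, Slc1a3, Aqp4 and Vim were lowest in WT, with Slc1a3 at 1.99, 13.4 and 5.34 CPM, Aqp4 at 1.99, 6.72 and 5.34 CPM and Vim at 1.99, 22.4 and 8.01 CPM. Others were higher, with Car2 at 459, 694 and 726 CPM, Glul at 159, 206 and 189 CPM, Clu at 101, 210 and 168 CPM and Apoe at 29.8, 255 and 197 CPM. Of the 6 markers with at least 20 UMIs over WT and rd10-vehicle, 4 (Rlbp1, Apoe, Clu and Car2) were at least 1.5-fold higher in rd10-vehicle, where 9.15% of all genes with as many UMIs were. In the cells with Nnat-group and no Zfhx3-group UMIs described below, 2 of 5 (Apoe and Sox9) were, where 9.44% of all genes with as many UMIs were. The part of glial RNA in the Sox9 level was not tested.

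The dopamine receptor Drd1 was at 328, 240 and 267 CPM in WT, rd10-vehicle and rd10-TMB, against 23.5 CPM in cluster 8 and 240 CPM in cluster 3. Drd4, which couples to inhibitory G proteins, was at 105, 172 and 192 CPM, with a log2 ratio of 0.70 for rd10-vehicle over WT that was 0.09 in the cells with Nnat-group and no Zfhx3-group UMIs, Drd4 being itself of the Nnat group. Bromocriptine is a dopamine receptor agonist, tamsulosin blocks alpha-1 and metoprolol blocks beta-1 adrenergic receptors. The alpha-1 and beta-1 genes were barely detected in cluster 7: Adra1a had 0, 0 and 1 UMIs, Adra1b 1, 0 and 0, Adra1d none, and Adrb1 0, 4 and 3 UMIs in WT, rd10-vehicle and rd10-TMB. Cluster 8 held Adrb1 at 321, 247 and 274 CPM. Drd2 had 0, 3 and 1 UMIs in cluster 7.

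The cells of cluster 7 differed among themselves. The transcription factor Zfhx3, the collagen Col11a1, the protocadherins Pcdh17 and Pcdh10 and the NMDA receptor subunit Grin2b occurred mostly in other cells than Nnat, the calcium-binding protein Cabp5, the cone channel subunit Cngb3 and Drd4. These 5 and 4 genes were chosen after their values in the 3 libraries had been seen, so the counts that follow are a description. A difference between WT and the rd10 libraries in these counts is not separate from that choice. More UMIs of the Zfhx3 group than of the Nnat group were found in 43 of 143 WT cells (30.1%, 22.7 to 38.3). In rd10-vehicle they were 4 of 178 (2.25%, 0.616 to 5.65), and rd10-TMB had 3 of 128 (2.34%, 0.486 to 6.70). The intervals of the rd10 libraries lay below that of WT and overlapped each other. They count cells of 1 library per group, so they do not measure a difference between groups of mice.

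With every cell thinned to 1000 UMIs, and 2 WT, 10 rd10-vehicle and 9 rd10-TMB cells left out as shallower, the counts were 34 of 141 (24.1%) for WT, 3 of 168 (1.79%) for rd10-vehicle and 1 of 119 (0.840%) for rd10-TMB. The thinned order was the same as the unthinned one for WT against both rd10 libraries. Cells with Nnat-group UMIs and no Zfhx3-group UMI were 77, 151 and 106 in WT, rd10-vehicle and rd10-TMB, and are called Nnat-side cells here. The other cells had both kinds with the Nnat group at least as high (15, 15 and 9) or neither (8, 8 and 10). Cells whose UMIs of the groups differed by 1 or less, with at least 1 UMI of either, numbered 12, 14 and 10 unthinned and 46, 36 and 27 after thinning. WT cells with at least 3 Zfhx3-group UMIs numbered 35 unthinned and 10 after thinning, so many of the thinned cells lay close to the limit.

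**Figure D2:**
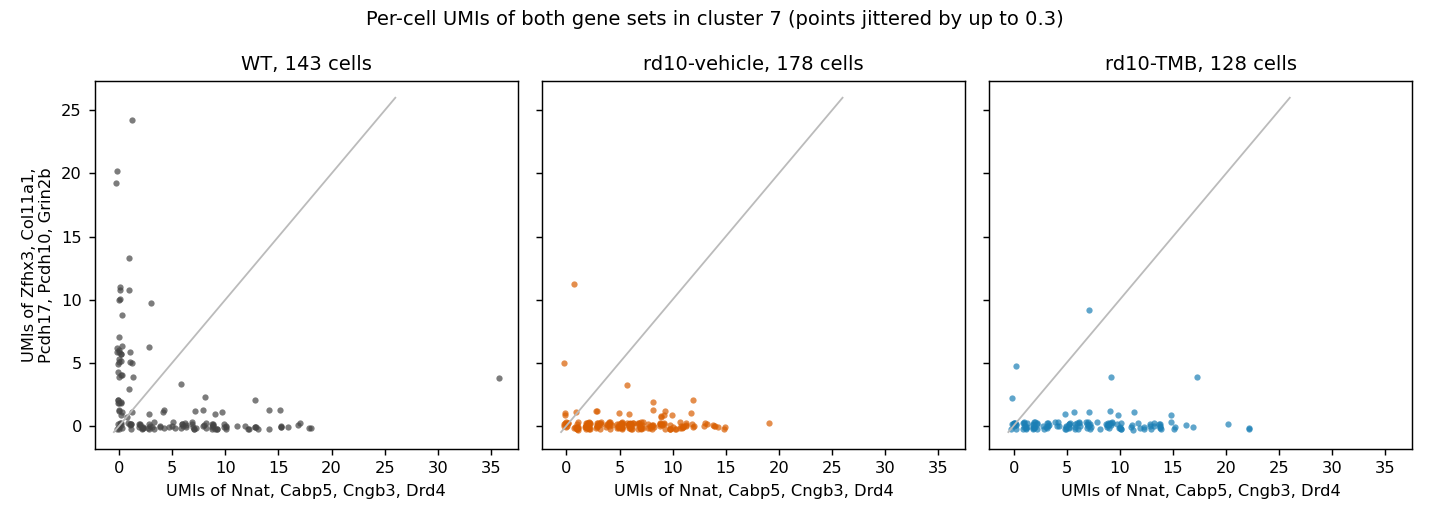
UMIs of the Nnat group (horizontal) and of the Zfhx3 group (vertical) in each cell of cluster 7, with 1 panel per library, 1 point per cell and a grey line where both are equal. The WT panel has a set of cells along the vertical axis that is made of 43 cells above the line, against 4 in rd10-vehicle and 3 in rd10-TMB.

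WT pooled both sexes and the rd10 libraries were female. WT cells that had Xist but lacked Y-linked UMIs held 11 of 65 cells on the Zfhx3 side (16.9%, 8.76 to 28.3), and WT cells with a Y-linked and no Xist UMI held 19 of 44 (43.2%, 28.3 to 59.0). The share was thus lower in the Xist cells of WT than in those with a Y-linked UMI. WT cells with neither kind of UMI held 9 of 26 (34.6%), and those with both held 4 of 8 (50%). These are cells of 1 pooled library and not animals, and the part of sex in the difference from rd10 was not tested. Over all clusters, cells with both a Grik1 and a Col11a1 UMI numbered 44, 4 and 4 in WT, rd10-vehicle and rd10-TMB, of which 20, 2 and 2 lay outside cluster 7 (10 of those in WT lay in the amacrine cluster 5). Without the Zfhx3-side cells, cluster 7 made up 2.23%, 2.92% and 2.60% of WT, rd10-vehicle and rd10-TMB.

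Summed over the cluster, Zfhx3 was at 250, 26.9 and 29.4 CPM in WT, rd10-vehicle and rd10-TMB. Col11a1 was at 81.4, 6.72 and 18.7 CPM, Pcdh17 at 101, 15.7 and 16.0 CPM, Pcdh10 at 95.3, 26.9 and 8.01 CPM, and Grin2b at 67.5, 6.72 and 10.7 CPM. All 5 were higher in the WT library than in both rd10 libraries, and these values had been seen when the genes were chosen. In cluster 8 Zfhx3 was at 419, 307 and 350 CPM and in the rod bipolar cells at 342, 330 and 305 CPM. In cluster 3 it was at 144, 67.2 and 64.4 CPM, and over all cells outside cluster 7 its log2 ratio for rd10-vehicle over WT was −1.35. The gene lay at chr8:108279311-108961636 (GRCm38.p6).

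Within WT, the 43 Zfhx3-side cells (181396 UMIs) were compared with the 77 Nnat-side cells (252011 UMIs). Of 1613 genes outside both groups with at least 50 UMIs, 143 (8.87%) were at least 1.5-fold higher and 134 (8.31%) at least 1.5-fold lower in the Zfhx3-side cells. Higher genes included the potassium channel Kcnd3 (480 against 111 CPM), Tmem108 (320 against 63.5 CPM), the calcium sensor Scgn (1461 against 472 CPM) and the cilium protein Rpgrip1 (810 against 246 CPM). Lower genes included the homeobox factors Prox1 (16.5 against 302 CPM) and Meis2 (49.6 against 524 CPM), the cone transducin subunit Gngt2 (165 against 1353 CPM), Prkar2b (49.6 against 294 CPM) and Gm45604 (27.6 against 226 CPM). Grik1 was at 1406 against 1329 CPM, a smaller step than for Otor (375 against 694 CPM) or Slitrk6 (198 against 611 CPM). Both kinds of cell thus held Grik1, and the Nnat-side cells held more Otor and Slitrk6.

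The comparison of rd10-vehicle with WT addressed the state of these cells in the rd10 retina. Of 3568 genes with at least 50 UMIs over both libraries, 159 (4.46%) were at least 1.5-fold higher and 165 (4.62%) at least 1.5-fold lower in rd10-vehicle. In the Nnat-side cells alone 128 of 2444 genes (5.24%) were higher and 87 (3.56%) lower. As each group was 1 library, no test between groups could be made.

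Among genes with at least 100 UMIs, the highest ratio was that of Apoe, a lipid carrier made mostly by glia, at 29.8, 255 and 197 CPM in WT, rd10-vehicle and rd10-TMB, or 3.02 (2.32 to 3.98) for rd10-vehicle over WT. Clu, another secreted glial chaperone, was at 101, 210 and 168 CPM (1.04, 0.55 to 1.58), and the metallothionein Mt1 at 61.6, 170 and 203 CPM (1.44, 0.85 to 2.12). All 3 had a ratio in the same direction in the cells outside the cluster (2.15 for Apoe, 2.36 for Clu and 2.77 for Mt1). Summed over 10 Müller glia markers, none of which was at 0 in any library, the cluster held 933, 1637 and 1513 CPM in WT, rd10-vehicle and rd10-TMB, while the other cells held 9101, 31121 and 28657 CPM. The part of glial RNA in these ratios was not tested. In the Nnat-side cells the ratios were 2.62 for Apoe, 0.70 for Mt1 and 0.47 for Clu.

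Other genes were higher in cluster 7 of rd10-vehicle while the pooled cells outside it had a ratio at or below 0. That pooled ratio also follows the mix of classes. The summed Müller glia markers outside the cluster were at 9101 and 31121 CPM in WT and rd10-vehicle. Peg3, an imprinted zinc finger gene, was at 121, 264 and 221 CPM in WT, rd10-vehicle and rd10-TMB, with 1.11 (0.67 to 1.60) in the cluster and −1.37 in the other cells. It was at 87.3, 80.4 and 82.3 CPM in cluster 8. Pcdh15, a protocadherin of hair cells and photoreceptors, was at 177, 363 and 248 CPM (1.03, 0.66 to 1.43), with −0.49 in the other cells and 105, 132 and 87.0 CPM in cluster 8. Dnaic1 was at 67.5, 163 and 165 CPM (1.25, 0.67 to 1.91). The mitochondrial nucleotide carrier Slc25a33 was at 81.4, 168 and 152 CPM (1.03, 0.48 to 1.63) and the ciliary gene Cep290 at 135, 253 and 184 CPM (0.90, 0.46 to 1.36). In the Nnat-side cells the ratios of these 5 genes were 0.96 for Peg3, 0.84 for Pcdh15, 1.19 for Dnaic1, 0.94 for Slc25a33 and 1.21 for Cep290, each past 1.5-fold. The Nnat-side cells are part of the cluster, and the highest and lowest genes were picked by its ratio. Their ratios in the Nnat-side cells are therefore not separate support. The ON bipolar channel Trpm1 (127, 233 and 216 CPM) was different, with 0.86 in the cluster and 0.11 in the Nnat-side cells. When the WT side was limited to cells that had Xist but lacked Y-linked UMIs, the ratio was 0.58 for Pcdh15 and 0.34 for Trpm1, both just or well within 1.5-fold.

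The lowest ratio was that of Zfhx3, −3.12 (−4.21 to −2.36), which became −1.75 when the WT side was limited to cells that had Xist but lacked Y-linked UMIs. Scgn, the secretagogin gene at chr13:23953456-23991327, was at 834, 374 and 398 CPM in WT, rd10-vehicle and rd10-TMB (−1.15, −1.43 to −0.90), and its ratio was −0.35 in the Nnat-side cells and −0.54 against the same Xist cells of WT. The ephrin receptor Epha5 (230, 110 and 128 CPM) had −1.05 in the cluster and −0.48 in the Nnat-side cells, and the histone chaperone Nap1l1 (500, 251 and 339 CPM) had −0.99 and −0.45, with −0.41 over all cells after thinning. These 3 genes lay within 1.5-fold in the Nnat-side cells, which also leave out cells with UMIs of both groups or of neither. The long noncoding RNA Snhg11 (632, 311 and 342 CPM) kept its ratio, with −1.02 (−1.32 to −0.73) in the cluster and −0.95 in the Nnat-side cells (−0.68 against the Xist cells of WT), and was also lower in rd10-vehicle in cluster 8 (798 against 395 CPM) and cluster 3 (693 against 201 CPM). The adhesion protein Lsamp (286, 143 and 136 CPM) had −0.98 and −0.88, and the calcium channel subunit Cacna2d3 (177, 91.8 and 104 CPM) −0.93 and −0.79. In the cells outside the cluster the ratios were −1.42 for Scgn, 0.41 for Epha5, −0.51 for Nap1l1, −4.02 for Snhg11, −0.44 for Lsamp and −1.12 for Cacna2d3. These ratios pool all other classes and also follow their mix. Snhg11 was at 5174 and 5034 CPM in the amacrine cluster 5 of WT and rd10-vehicle. Scgn was at 1717 and 1598 CPM in cluster 8 and at 578 and 569 CPM in cluster 3 of the same libraries.

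**Figure D3:**
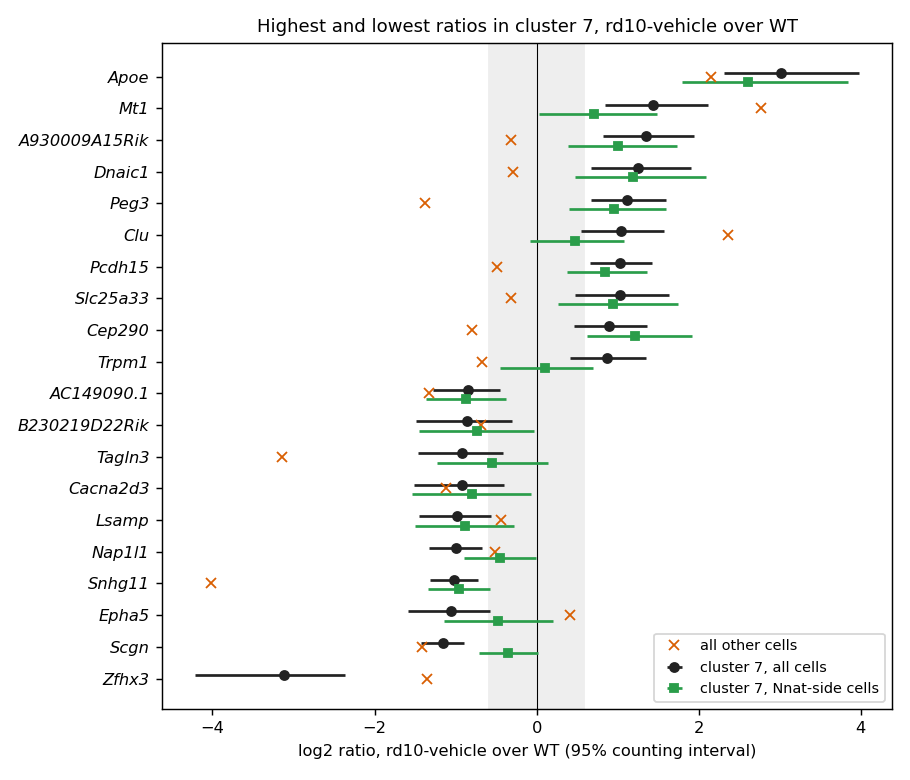
Log2 ratio of rd10-vehicle over WT for the 10 highest and 10 lowest genes of cluster 7 with at least 100 UMIs, in all its cells (black), in its Nnat-side cells (green, with 95% counting intervals) and in all other cells (orange crosses, no interval). The grey band is within 1.5-fold, and Apoe at 3.02 and Zfhx3 at −3.12 mark the ends, Zfhx3 having no green point because it defines the Nnat-side cells.

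The lists of genes that serve these cells were read against the background at their lower limit of 20 UMIs, where 9.15% of 6786 genes were higher and 8.78% lower in rd10-vehicle. Of 11 glutamate receptor genes that reached 20 UMIs, 2 were higher (Gria4 and Grid1) and 2 lower (Grin2b and Cnih2), with a median of −0.14. Grin2b is of the Zfhx3 group and was chosen with it. None of 8 was higher or lower in the Nnat-side cells, where the background was 9.44% higher and 7.85% lower. The median of these 8 was 0.01. Cnih2, an AMPA receptor partner, had 20, 0 and 7 UMIs in WT, rd10-vehicle and rd10-TMB. Of 11 GABA and glycine receptor genes, the rho subunit Gabrr2 (141, 213 and 270 CPM) was higher and Gabbr1 (107, 62.7 and 96.1 CPM) lower, with a median of −0.03.

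Of 32 ribbon synapse genes, 3 were higher (Bsn, Cabp4 and Cabp5) and Cacna2d3 was lower, with a median of −0.04. Of 19 ion channel genes, 2 were higher (Kcnb2 and Kcnh2) and 3 lower (Kcnc1, Kcnd3 and Scn1a). Kcnd3 was at 240, 134 and 125 CPM (−0.83), and its ratio was 0.11 in the Nnat-side cells. Of 11 calcium-binding protein genes, Cabp5 (570, 920 and 1027 CPM) and Rcvrn were higher and Cabp2 and Scgn lower. Cabp2, a calcium channel modulator of hair cells and retina, was at 93.3, 17.9 and 10.7 CPM in WT, rd10-vehicle and rd10-TMB, or −2.24 (−3.67 to −1.29) for rd10-vehicle over WT. In WT its UMIs were 45 in the Zfhx3-side cells and 1 in the Nnat-side cells. Of 18 bipolar transcription factors, Meis2 (351, 540 and 515 CPM) was higher and Zfhx3 lower. In the Nnat-side cells Meis2 was at 524, 564 and 569 CPM, with a ratio of 0.10.

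Of 35 adhesion and wiring genes 9 were lower and 3 higher, with a median of −0.17. The lower ones were Slitrk5, Nrxn2, Pcdh10, Pcdh17, Tenm1, Tenm4, Plxna4, Epha5 and Dcc. Pcdh10 and Pcdh17 belong to the Zfhx3 group, so their absence from the Nnat-side cells follows from the choice of those cells. In the Nnat-side cells 1 of 25 (Dcc) was lower and none higher, where the background was 7.85% lower and 9.44% higher, and the median was 0.03. Over all cells of the cluster the median was −0.031 with a limit of 50 UMIs and 0.20 after thinning to 1000 UMIs, so its sign was not stable. A median of all genes near 0 (0.01) stood beside each list.

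Transcripts of photoreceptors were present in the cluster in every library. Summed over 8 cone markers, of which Cngb3 and Gngt2 were also high in the Nnat-side cells, the cluster held 1416, 2147 and 2079 CPM in WT, rd10-vehicle and rd10-TMB. Gngt2 made up 902, 1323 and 1409 CPM of these. Of the 6 cone markers with at least 20 UMIs over WT and rd10-vehicle, 3 (Arr3, Opn1sw and Pde6h) were at least 1.5-fold higher in rd10-vehicle (background 9.15%), and the median was 0.59. Opn1sw (4 and 16 UMIs in the Nnat-side cells of WT and rd10-vehicle) and Pde6h (8 and 33 UMIs) were past 1.5-fold in those cells too, with 1.18 (−0.22 to 3.46) and 1.33 (0.32 to 2.79), against a background of 9.44%, and the median was 0.15. In the cells outside the cluster their ratios were −0.46 and −0.04. The part of cone RNA in these ratios was not tested. Summed over 10 rod markers it held 2216, 2328 and 2789 CPM. The sum over 8 amacrine markers was 87.4, 31.3 and 13.3 CPM, with 1, 3 and 3 genes at 0, and the sum over 7 microglia markers was 1.99, 4.48 and 0 CPM.

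The comparison of rd10-TMB with rd10-vehicle addressed the drug combination. Of 3128 genes with at least 50 UMIs, 85 (2.72%) were at least 1.5-fold higher and 117 (3.74%) at least 1.5-fold lower in rd10-TMB. Among the 630 genes with at least 200 UMIs, 2 were higher and 2 lower. The lipoprotein receptor Vldlr had the highest ratio, at 147, 89.6 and 181 CPM in WT, rd10-vehicle and rd10-TMB (1.0, 0.43 to 1.62, and 1.67 after thinning). The mitochondrial ADP/ATP carrier Slc25a5 was at 105, 91.8 and 168 CPM (0.86, 0.28 to 1.48), and the respiratory chain subunits Cox5a at 334, 231 and 366 CPM (0.66, 0.29 to 1.05) and Atp5j2 at 308, 244 and 382 CPM (0.64, 0.28 to 1.02). These genes were picked by that ratio, so a low rd10-vehicle value is favoured by the choice.

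The lowest ratios were those of Rdx, an ezrin family linker of membrane and actin, at 137, 168 and 88.1 CPM (−0.91, −1.57 to −0.32), and the chromatin reader Zmynd8 at 205, 206 and 109 CPM (−0.89, −1.48 to −0.37). The synaptic vesicle chaperone Dnajc5 was at 175, 175 and 109 CPM (−0.66, −1.26 to −0.11). Over the 10 highest and 10 lowest genes, the cells outside the cluster had ratios between −0.21 and 0.48. Against WT the rd10-TMB ratios were −0.88 for Zmynd8 and −0.66 for Dnajc5, and both comparisons share the rd10-TMB library.

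**Figure D4:**
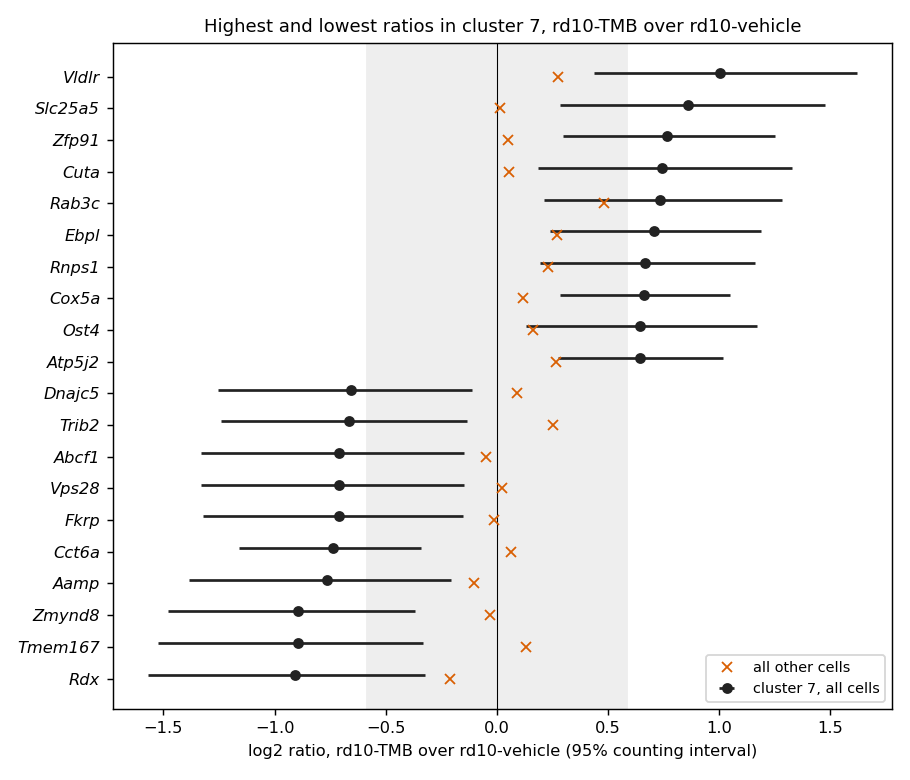
Log2 ratio of rd10-TMB over rd10-vehicle for the 10 highest and 10 lowest genes of cluster 7 with at least 100 UMIs, with the same symbols as in the plot of rd10-vehicle over WT. The ratios run from −0.91 (Rdx) to 1.0 (Vldlr) and the crosses of the other cells lie between −0.21 (Rdx) and 0.48 (Rab3c).

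Genes of energy metabolism differed by small steps. Of 79 nuclear genes of oxidative phosphorylation, 59 had a ratio above 0 for rd10-TMB over rd10-vehicle and the median was 0.16, with Atp5j2 and Cox5a at least 1.5-fold higher and the complex III core gene Uqcrc1 lower (28, 39 and 17 UMIs). The background at 20 UMIs was 6.62% higher and 8.41% lower of 6181 genes, so the count past 1.5-fold was below it. For rd10-vehicle over WT 29 of 79 were above 0 and the median was −0.10, against 0.03 with 46 of 79 above 0 in cluster 8. Cluster 3 had a median of 0.23 with 71 of 79 above 0 in that comparison. For rd10-TMB over WT the median in cluster 7 was 0.03 with 48 of 79 above 0. In cluster 8 the median for rd10-TMB over rd10-vehicle was 0.21 with 70 of 79 above 0, and in cluster 3 it was 0.09 with 59 of 79 above 0.

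The 13 respiratory chain genes of the mitochondrial genome had a median of 0.18 for rd10-TMB over rd10-vehicle in cluster 7, with 12 of 13 above 0. In cluster 8 the median was −0.22 with 0 of 13 above 0, and in cluster 3 it was 0.04 with 8 of 13 above 0. The direction thus differed between the clusters for the same pair of libraries. The median share of mitochondrial UMIs per cell moved with it in cluster 7 (7.98% and 9.03%), and its part was not tested. The 80 ribosomal protein genes had a median of 0.11 with 65 above 0 in cluster 7, against 0.20 with 75 above 0 in cluster 8 and 0.05 with 50 above 0 in cluster 3.

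**Figure D5:**
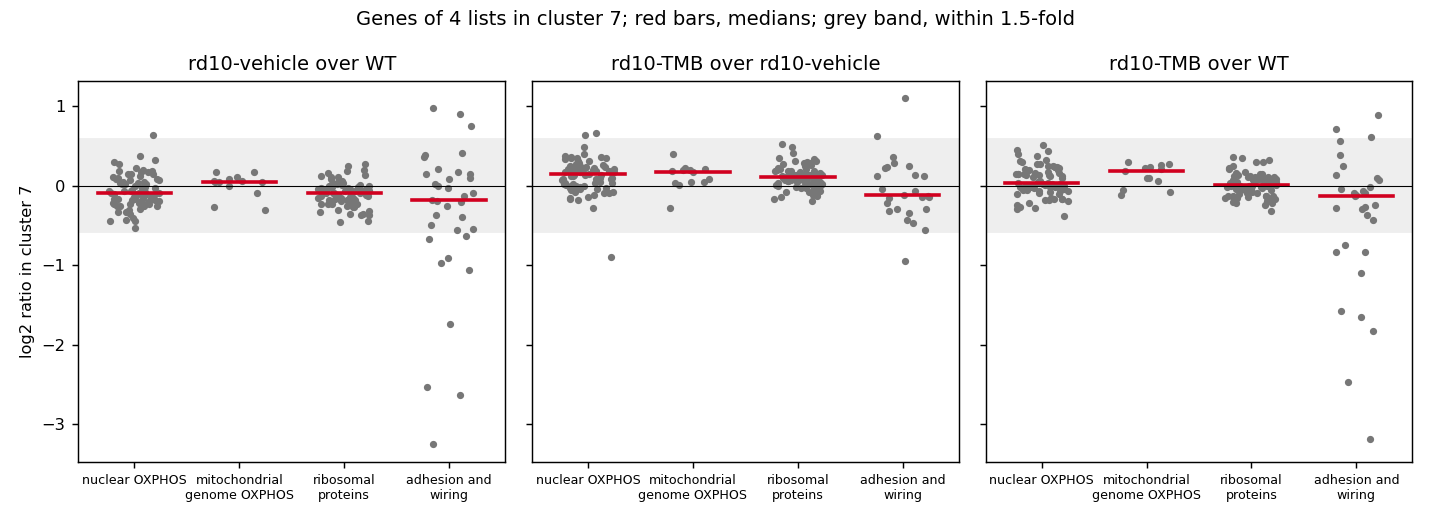
Log2 ratios of the genes of 4 lists with at least 20 UMIs in cluster 7, with 1 panel per comparison, 1 point per gene, red bars for medians and a grey band for values within 1.5-fold. Nearly all oxidative phosphorylation and ribosomal genes lie inside the band, with medians of 0.16 (nuclear), 0.18 (mitochondrial genome) and 0.11 (ribosomal) for rd10-TMB over rd10-vehicle, and the adhesion and wiring genes reach below the band in both comparisons with WT.

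The receptor and synapse lists for rd10-TMB over rd10-vehicle were read against the same background of 6.62% higher and 8.41% lower. With so few genes in a list, 1 or 2 genes move its share by several percentage points. Of 9 glutamate receptor genes 2 were lower (Gria4 and Grid1), of 11 GABA and glycine receptor genes Gabbr1 was higher and Gabrb2 lower, and of 30 ribbon synapse genes 3 were higher (Erc1, Cacna1f and Dnm3) and 2 lower (Bsn and Erc2). None of 18 bipolar factors passed. Of 20 genes of the cAMP pathway, 3 phosphodiesterase genes were lower (Pde4a, Pde7a and Pde7b) and none was higher. The adhesion genes had a median of −0.12 with 2 higher and 1 lower of 26, and the netrin receptor Dcc was at 63.5, 31.3 and 69.4 CPM (1.10, 0.16 to 2.20).

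Between rd10-TMB and WT, 134 of 3305 genes (4.05%) were higher and 185 (5.60%) lower. Mt1 (1.69, 1.10 to 2.37), A930009A15Rik (1.20, 0.63 to 1.81), Gabrr2 (0.93, 0.48 to 1.39), Gnb3 (0.91, 0.53 to 1.31) and Peg3 (0.86, 0.38 to 1.37) had the highest ratios among genes with at least 100 UMIs. The lowest were Zfhx3 (−2.98), Gm47283 (−1.36), AC149090.1 (−1.33), Scgn (−1.06) and the pseudokinase Trib2 (−1.06), with Trib2 at 248, 188 and 117 CPM. Gnb3, the G protein subunit shared by cones and ON bipolar cells, was at 191, 271 and 360 CPM, so that both Gnb3 and Gabrr2 were highest in rd10-TMB. In the Nnat-side cells 73 of 2153 genes (3.39%) were higher and 94 (4.37%) lower, and the ratios were 0.28 for Gnb3, 0.68 for Gabrr2 and −0.39 for Scgn. Against the Xist cells of WT the ratios were −1.61 for Zfhx3, 0.44 for Gabrr2 and −0.45 for Scgn, and after thinning they were 0.41 for A930009A15Rik and 0.46 for Gnb3.

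At the limit of 20 UMIs used for lists, 8.78% of 6478 genes were higher and 9.9% lower in rd10-TMB than in WT. Of 31 adhesion and wiring genes 3 were higher and 9 lower, with a median of −0.13, and in the Nnat-side cells, which by choice lack Pcdh10 and Pcdh17, 2 of 24 were higher and 2 lower with a median of −0.08 (background 8.74% higher and 9.79% lower). Of 11 calcium-binding protein genes Cabp5 was higher and Cabp2 and Scgn were lower. Of 31 ribbon synapse genes 3 were higher (Erc1, Cacna1f and Cabp5) and 3 lower (Rims1, Erc2 and Cacna2d3).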

How the data were processed

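Retinas were dissociated and made into 3 droplet libraries, 1 per group. Per the labels and the study's methods, the authors aligned reads to mm10 with Cell Ranger 6.0.1, combined matrices with Cumulus, removed doublets with Scrublet, kept cells with at least 500 detected genes and clustered in Seurat 3.2.2 after Harmony. In the matrix as deposited, values are the natural log of 1 plus UMIs scaled per cell. Its 32620606 entries were turned back into UMI counts with the deposited cell totals. All (100%) were whole within 0.001 UMI, and sums matched the totals in 15242 of 15242 cells. No cell filter or doublet caller was added. Barcodes shared by pairs of libraries numbered 8, 10 and 7 over all cells. The authors' tests over cells (MAST) were not used.

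Counts of cluster 7 were summed per library, because cells are not replicates, and scaled to CPM with exact Poisson intervals. Ratios had exact conditional intervals and shares Clopper-Pearson intervals, all at 95% and for counting error only, since PCR and animal variation are not covered. No p-value was computed. Genes needed 50 UMIs over both libraries (20 for lists, 100 for ranking). Named genes were list members with 20 UMIs, the 10 highest and 10 lowest ratios (5 for rd10-TMB over WT) and the leading genes against all other cells, cluster 8 and cluster 3, sex-linked genes left out of the ranking. Prox1, Tmem108, Rpgrip1 and the Zfhx3 and Nnat groups were chosen after their values were seen. Cluster, lists and members were chosen with earlier results of these data known. Positions and promoters came from RefSeq GRCm38.p6, where 761 of 780 named genes matched. Python 3.11.15, numpy 2.4.6, scipy 1.17.1, pandas 2.3.3 and matplotlib 3.10.9 were used, and the scripts were tested on simulated data. Alternatives were thinning to 1000 UMIs, other UMI limits, a 2-fold limit, other scalings and subsets of cells.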

Additional observations from a re-analysis of the deposited data

How the results depend on the processing

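No paired analysis was possible because each group was 1 library, and for the same reason no replicate could be left out. The counts of genes past the limit followed the limits chosen. For rd10-vehicle over WT (159 higher, 165 lower) they were 56 and 52 after thinning to 1000 UMIs, 621 and 596 at 20 UMIs, 11 and 10 at 200 UMIs and 19 and 22 past 2-fold, and 87 were lower in the Nnat-side cells. For rd10-TMB over rd10-vehicle (85, 117) they were 35 and 26, 409 and 520, 2 and 2, and 7 and 10 in the same order. For rd10-TMB over WT (134, 185) they were 42 and 37, 569 and 641, 14 and 10, and 12 and 33, with 95 lower against WT cells that had Xist but lacked Y-linked UMIs and 73 higher and 94 lower in the Nnat-side cells. Thinning and subsets leave fewer genes to count. The median of the adhesion and wiring genes for rd10-vehicle over WT (−0.17) was −0.031 at 50 UMIs, 0.20 after thinning and 0.029 in the Nnat-side cells, which were chosen after the data were seen, and the cause was not tested. The shares of cluster 7 became 5.74%, 7.54% and 6.72% for WT, rd10-vehicle and rd10-TMB without the rod, cone and Müller clusters, 3.76% (WT) and 2.56% (rd10-vehicle) with cells of at least 1000 genes, 6.10%, 5.49% and 5.57% with clusters 7 and 8 joined, and 2.23% (WT) without the Zfhx3-side cells. Of 480 values of ranked genes under the alternatives, 452 moved by less than their interval, 28 by more and 0 changed sign.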

Other observations

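Immediate-early genes were found in cluster 7 in each library. Their sum over 24 genes was 7848, 8935 and 10333 CPM in WT, rd10-vehicle and rd10-TMB, against 2538, 2882 and 3243 CPM in cluster 8 and 8984, 26729 and 24494 CPM in all cells outside cluster 7. Fos was at 2423, 2740 and 3170 CPM, Fosb at 765, 866 and 1107 CPM and Egr1 at 1190, 1182 and 1500 CPM. Of 14 genes with at least 20 UMIs, 12 had a ratio above 0 for rd10-TMB over WT, with a median of 0.36, and Jund, Atf3 and Klf4 were at least 1.5-fold higher while Nr4a2 and Klf6 were lower (background 8.78% higher and 9.9% lower of 6478 genes). For the same comparison, 10 of 11 were above 0 in cluster 8 with a median of 0.32, and 10 of 14 in cluster 3 with a median of 0.23. Within the Nnat-side cells of cluster 7, 9 of 13 were above 0 with a median of 0.17. Jun, Jund, Atf3 and Klf4 were higher there and Nr4a2 lower (background 8.74% higher and 9.79% lower). In the cells outside the cluster Fos had a ratio of 1.55 for rd10-vehicle over WT, against 0.18 (0.06 to 0.29) in cluster 7.

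Lyve1, the hyaluronan receptor known from lymphatic vessels, was named after its values were seen. It was at 171, 246 and 307 CPM in WT, rd10-vehicle and rd10-TMB in cluster 7, the highest level of the 21 clusters over all libraries (235 CPM, with 92.9 CPM in the next cluster). The decoy chemokine receptor Ackr1 was at 298, 166 and 155 CPM. Summed over 6 endothelial markers the cluster held 7.94, 11.2 and 8.01 CPM. Of 17 clock genes with at least 20 UMIs, 8 had a ratio above 0 for rd10-vehicle over WT, with a median of −0.07, and Per1 (29.8, 60.4 and 66.7 CPM) and Cry1 were at least 1.5-fold higher and none lower (background 9.15% higher and 8.78% lower). For rd10-TMB over rd10-vehicle the median of 16 was −0.05, with Ciart higher and Cry1 lower (background 6.62% higher and 8.41% lower).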
